A study of Mus musculus with 14 samples.

Results

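Oligodendrocyte precursors low in neuron RNA were chosen from droplet transcriptomes of the mouse lateral hypothalamic area by their marker counts. A cell barcode was kept with at least 500 unique molecular identifiers (UMIs, each a tagged RNA molecule), at least 300 genes and no more than 20% of UMIs from mitochondrial genes. It was taken as a precursor when Pdgfra, Cspg4, Vcan, Neu4 and C1ql1 together gave at least 2 UMIs, the neuronal genes Snap25 and Syt1 together no more than 1, and the myelin genes Mag, Mog, Mobp, Cldn11 and Ermn together fewer than 4. The gate took 612 of 15378 kept barcodes (3.98%), out of 28410 barcodes in all. Another 72 barcodes met the precursor count but held more than 1 Snap25 or Syt1 UMI, 22 held 4 or more myelin UMIs, and 1 of these did both.

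The cells came by Drop-seq, which captures single cells with barcoded beads, from tissue punches of 14 male wildtype C57BL/6J mice. Ad libitum food was a high fat diet for 7 of them and a taste-matched control chow for the other 7. Sequencing used separate pools, pool 1 holding 4 mice per diet and pool 2 holding 3. Ages and time on the diet are not in the labels used here. Replicate numbers only name the mice in listing order, and the control mice are called control 1 to 7 and the high fat diet mice HFD 1 to 7.

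Oligodendrocyte precursors, also called NG2 glia, persist in the adult brain, where they divide, sense platelet-derived growth factor through the receptor Pdgfra, receive synaptic input from neurons and mature into the oligodendrocytes that wrap axons in myelin. Gpr17, an orphan G protein-coupled receptor, comes on when a precursor commits to mature and goes off again before myelin is made. Cspg4 encodes the NG2 proteoglycan and is also made by the mural cells of vessels, while Pdgfra is also made by fibroblasts.

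The precursors numbered 370 in control mice and 242 in HFD mice. Control 1 to 7 gave 47, 100, 53, 93, 64, 4 and 9, and HFD 1 to 7 gave 43, 40, 60, 41, 32, 25 and 1. Gene tests used the 5 control and 6 HFD mice with at least 10 precursors. The precursors held 784805 UMIs in all, with a median of 1039.5 UMIs and 804 genes per cell against a median of 1341.5 UMIs over all kept barcodes. No precursor barcode was kept in another mouse, and 38 precursor barcodes ended in an uncalled base. Scrublet called 5 of the precursors doublets, and they were retained. It called 1.44% of all kept barcodes. Control 6, control 7 and HFD 7, with under 300 kept barcodes each, were not scored and count as not called. Total depth ran from 147470 UMIs in HFD 7 to 5611524 in HFD 2, and control 1, control 2 and HFD 1 stood apart from the other libraries in an earlier analysis of these data.

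The genes of the gate are a description of the choice, not a result. Pdgfra (chr5:75152292-75198215 in GRCm38) was seen in 483 precursors (78.9%) and Vcan, the matrix proteoglycan versican (chr13:89655312-89742509), in 420 (68.6%). Cspg4 (chr9:56865033-56899870) was seen in 357 (58.3%), the sialidase gene Neu4 (chr1:94020451-94028334) in 295 (48.2%) and the secreted C1q-like gene C1ql1 (chr11:102939264-102946688) in 221 (36.1%). Of the 5 genes, 3 were seen in 196 precursors, 2 in 174, 4 in 130, all 5 in 52 and only 1 in 60.

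Genes outside the gate were in keeping with the label for most of these cells. Olig1 and Olig2, the transcription factors of the lineage, were seen in 463 and 405 precursors, the receptor phosphatase gene Ptprz1 in 465, Sox10, a lineage regulator, in 199, and Gpr17 in 340. However, 39 precursors had no UMI of any of these 5 genes. A group of 37 precursors, 29 of them from control mice, held at least 4 UMIs of the markers of mural cells (24 cells), endothelial cells (15), fibroblasts (14) or microglia (6), where a cell can count under several types. Of these 37 cells, 32 had no Olig1, Olig2, Sox10, Ptprz1 or Gpr17 UMI, against 7 of the other 575. Rgs5, a mural gene, was seen in 19 of the 37 and in 1 of the 575. Of the 23 precursors that passed on Cspg4 alone, 20 were among the 37, and of the 21 that passed on Pdgfra alone, 8 were.

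The 37 marker-holding cells lay at the edge of the gate. They made up 26 of the 99 precursors with 2 UMIs of the gate genes, 6 of the 105 with 3, and 5 of the 408 with 4 or more. Just outside the gate, 137 barcodes had 1 such UMI, and 83 of them (60.6%) lacked all 5 lineage genes, against 25.3% of those with 2 UMIs and 1.72% of those with 4 or more. The largest cells were also among the 37. One cell of control 1, with 31739 UMIs, gave 40.4% of that mouse's precursor UMIs and held 61 fibroblast marker UMIs and no Olig1. A cell of control 7, with 29682 UMIs, gave 71.4% there and held 821 endothelial marker UMIs. The main counts below are therefore also given over the 575 precursors without these markers, a set defined after seeing the data. Astrocyte marker UMIs, at 4 or more, were found in 186 precursors, and these markers did not decide which cells were among the 575. The 10 astrocyte markers summed to between 1501 and 2819 CPM (the UMIs of a gene scaled to the total of the summed cells) in control precursors and between 1536 and 3146 in HFD precursors, against 309.9 in oligodendrocytes and 30840 in astrocytes, and 1 of the 10 was at 0 in control precursors. Among them, the defining gene Aqp4 was seen in 9 of the 612. A stricter set without any of these other types' markers, astrocyte markers included, kept 398 precursors and is among the settings given further below. The part of astrocyte RNA alone was not tested.

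Transcripts of the local peptide neurons were seen in all 3 glial classes. Hcrt, which encodes the hypocretin precursor, was seen in 137 of 612 precursors (22.4%), 1417 of 6160 oligodendrocytes and 201 of 885 astrocytes, and Pmch, which encodes the melanin-concentrating hormone precursor, in 93, 842 and 120 cells (15.2%, 13.7% and 13.6%). Oligodendrocytes here are the 6160 kept barcodes with at least 4 UMIs of the same myelin genes and astrocytes the 885 with at least 2 UMIs of Aqp4, Gja1, Agt, Slc6a11 and Ntsr2, both with no more than 1 precursor or neuron gene UMI. Their median depths were 1093 and 676 UMIs. After thinning each cell to 500 UMIs, Hcrt was seen in 11.3% of precursors, 11.6% of oligodendrocytes and 16.6% of astrocytes, and Pmch in 6.86%, 6.83% and 10.4%. Whether these peptide transcripts were background RNA or expression was not tested.

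Precursors took up a mean of 4.51% ± 1.44 (SD, n = 7) of kept barcodes in control mice and 3.09% ± 0.761 (SD, n = 7) in HFD mice. The control mice ran from 2.69% in control 6 through a median of 4.15% in control 7 to 7.28% in control 2 (95% Wilson interval 6.03 to 8.78%). The HFD mice ran from 2.04% in HFD 7 through a median of 2.96% in HFD 1 to 4.27% in HFD 6 (2.91 to 6.22%). The groups overlapped, since control 6 lay below the HFD median and HFD 6 above the control median. The difference of -1.43 percentage points had p = 0.0274 by a two-sided exact permutation test over 3432 divisions of the mice, and 0.11 after Benjamini-Hochberg adjustment over the 4 per-mouse measures compared, so it did not pass. Within pool 1 the difference was -2.24 points (p = 0.0286, exact, the smallest 4 against 4 mice allow) and within pool 2 it was -0.335 (p = 0.8, exact). Without the 37 marker-holding cells the means were 4.06% and 2.71% (p = 0.104, exact permutation test). The difference was -1.09 points (p = 0.124, exact) when each cell was thinned to 500 UMIs before gating. Without control 1, control 2 and HFD 1 it was -0.975 (p = 0.0996, exact). Wilson intervals cover counting error only.

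**Figure D1:**
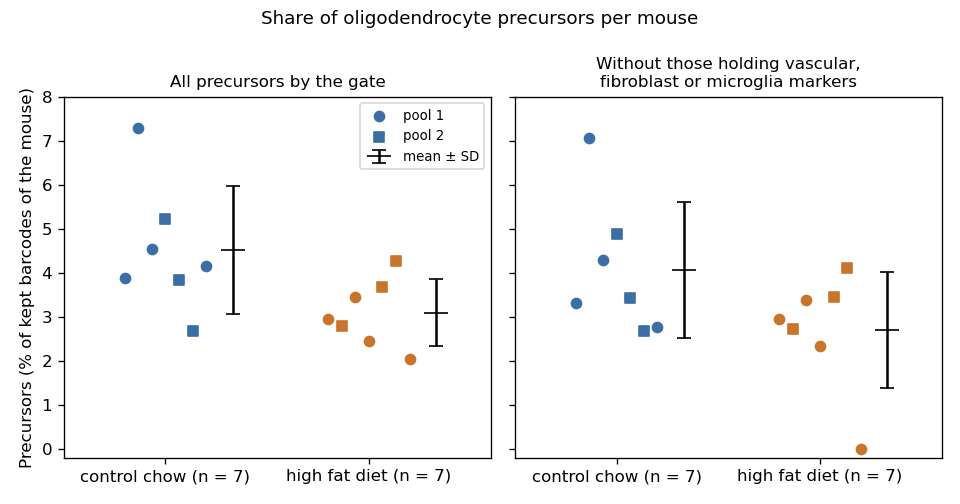
Precursors as a percent of the kept barcodes of each mouse, all 612 on the left and the 575 without vascular, fibroblast or microglia markers on the right, with circles for pool 1, squares for pool 2 and bars for mean ± SD. Control 2, at 7.28%, is the highest mouse, and the diet groups overlap in both panels.

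The depth of the precursors did not separate the diets. Median UMIs per precursor ran from 923 to 1345 in control 1 to 5 and from 772 to 1430 in HFD 1 to 6, and on the log10 scale the difference was -0.0543 (p = 0.312, exact permutation test).

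Against oligodendrocytes of the same mice, precursors held far more of the proteoglycan, glutamate receptor and immediate early transcripts and far less of the myelin transcripts. Levels are CPM over the UMIs summed for a class in a mouse, and differences are log2 fold changes from edgeR with the mouse as a block, the gate genes left out. The edgeR scaling moved these differences down from the plain CPM ratios by a median of 0.43 on the log2 scale. Both classes were cut by marker counts of the same cells, so every difference between them is a description and carries no p. At an adjusted p under 0.05, 2593 of 4183 genes (62.0%) differed, 1141 higher (27.3%) and 1452 lower (34.7%) in precursors. With the 575 cells 2654 of 4117 genes did (64.5%), and 2426 were shared.

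Of 30 genes of precursor identity, 26 could be compared and all 26 were higher in precursors, with a median log2 difference of 4.93 beside -0.08 over all genes. Cacng4, an auxiliary subunit of AMPA-type glutamate receptors, had the largest difference among them. It had between 1018 and 2473 CPM in precursors (median 2049) and between 0 and 11.9 CPM in oligodendrocytes, a log2 difference of 8.24 (SE 0.160). Every mouse had more in precursors, and no value of the classes overlapped. Ptprz1 had a median of 1766 CPM (1247 to 2560) against 7.12 in oligodendrocytes. The transcription factor gene Sox6, which holds precursors back from maturing, had a median of 276 CPM (147 to 374) and was at 0 in most oligodendrocyte sums.

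Olig1, Olig2 and Sox10, which oligodendrocytes keep, differed less. Olig1 ran from 725 to 4661 CPM in precursors (median 3741) and from 283 to 1510 in oligodendrocytes, a log2 difference of 1.17 (SE 0.0997). Olig2 ran from 409 to 1964 CPM in precursors (median 1702) and from 106 to 294 in oligodendrocytes, with no overlap. Sox10 was at medians of 384 and 238 CPM with a log2 difference of 0.30. Olig2 had a wide spread between mice. Control 1 and 2 had 471 and 409 CPM, while control 3 to 5 had 1730, 1657 and 1879. HFD 1 and 6 had 1105 and 1024, and HFD 2 to 5 had 1703, 1702, 1964 and 1907. Over the 575 cells control 1 had 980.3 CPM, control 2 417, HFD 1 1105 and HFD 6 1102, and the other mice between 1722 and 2087. The 3 libraries that stood apart were among the 4 lowest in both sets, and the part of library quality in this was not tested.

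The promoters of identity genes with a high level here are shown for the letters they share. RefSeq promoters of GRCm38.p6, from 250 bases before to 50 after a start site, were at hand for 18 of the 26 genes. The E-box CAGCTG, a motif of basic helix-loop-helix factors that reads the same on both strands, was in 7 of their 26 promoters (26.9%), in 6 of 18 promoters of the myelin genes (33.3%) and in 16.3% of all 32851 promoters. The SOX motif ACAAAG, or CTTTGT on the other strand, was in 8 of 26 (30.8%), 6 of 18 (33.3%) and 18.7%. The SOX motif ACAATG, or CATTGT, was in 3 of 26 (11.5%), 1 of 18 (5.56%) and 12.6%. Counted by gene, the E-box was in 7 of 18 identity genes (38.9%) and 5 of 14 myelin genes (35.7%). ACAAAG was in 4 (22.2%) and 6 (42.9%) of these genes, and ACAATG in 2 (11.1%) and 1 (7.14%). A gene with several promoters counts once here, so these shares are not set beside those of all promoters. No motif overlaps another. A match is a run of letters and not a shown binding site. The 3 genes with the highest precursor level among those with an E-box match were Sulf2, which trims heparan sulfate (median 453 CPM; chr2:166155634-166155933, minus strand), Lrrn1, a leucine-rich repeat membrane protein (395 CPM; chr6:107529476-107529775, plus strand), and Matn4, a matrilin of the matrix (384 CPM; chr2:164404769-164405068, minus strand). Their promoters follow 5′ to 3′ with motif matches in capitals.
Sulf2: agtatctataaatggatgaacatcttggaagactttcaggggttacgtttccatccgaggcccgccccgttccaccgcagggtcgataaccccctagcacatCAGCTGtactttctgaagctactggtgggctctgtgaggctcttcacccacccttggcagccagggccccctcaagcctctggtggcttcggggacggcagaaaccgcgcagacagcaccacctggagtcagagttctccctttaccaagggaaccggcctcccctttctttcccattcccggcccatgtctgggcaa
Lrrn1: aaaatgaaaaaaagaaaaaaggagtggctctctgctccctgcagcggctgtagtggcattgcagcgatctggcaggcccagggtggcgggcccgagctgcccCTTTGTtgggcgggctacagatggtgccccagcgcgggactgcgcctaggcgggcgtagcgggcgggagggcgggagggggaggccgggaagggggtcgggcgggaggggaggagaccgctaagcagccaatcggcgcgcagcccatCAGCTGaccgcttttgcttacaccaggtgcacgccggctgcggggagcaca
Matn4: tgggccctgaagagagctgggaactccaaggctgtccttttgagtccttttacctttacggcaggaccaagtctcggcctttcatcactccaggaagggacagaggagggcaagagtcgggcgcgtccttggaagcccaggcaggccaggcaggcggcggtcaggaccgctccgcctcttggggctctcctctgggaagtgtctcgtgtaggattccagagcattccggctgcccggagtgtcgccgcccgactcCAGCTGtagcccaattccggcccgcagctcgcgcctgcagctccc

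Sulf2 and Matn4 have 1 E-box match each, and Lrrn1 has 1 E-box and 1 ACAAAG match, the latter on the other strand. In precursors against oligodendrocytes their log2 differences were 1.98 (SE 0.141), 5.06 (SE 0.203) and 0.50 (SE 0.125) in the order Sulf2, Matn4 and Lrrn1.

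Matrix and proteoglycan genes were higher in precursors in 14 of 15 cases, with a median log2 difference of 5.17. Cspg5, or neuroglycan C, had a median of 1612 CPM (776 to 2378) against 11.1 in oligodendrocytes. Bcan, or brevican, had 1098 CPM (356 to 1495) against 6.86. The exception was Hapln2, a link protein of the node of Ranvier, with a mean of 2.36 CPM in precursors and 441 in oligodendrocytes.

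Glutamate receptor genes were higher in 6 of 7 cases, Cacng4 included. The AMPA receptor subunits Gria2 and Gria3 had medians of 1359 and 528 CPM in precursors against 47.7 and 4.92 in oligodendrocytes. Gria4 differed less, by 1.61 (SE 0.151) on the log2 scale, and the metabotropic receptor Grm5 by 4.84 (SE 0.277). Grm3, another metabotropic receptor, was lower in precursors, at -5.52 (SE 0.326).

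Immediate early genes, which neurons and glia switch on within minutes of stimulation and also during tissue dissociation, were higher in 11 of 13 cases with their stress companions. Jun was seen in 546 of the 612 precursors (89.2%). It ran from 3396 to 10260 CPM in precursors (median 6688) and from 163 to 326 in oligodendrocytes, a log2 difference of 4.21 (SE 0.124). Fos ran from 2284 to 7267 CPM (median 3736) against 2.92 to 50.8, and Egr1 had a median of 1897 CPM against 16.4. These levels were as large in the 575 cells, where Jun had a median of 6647 CPM and Fos 3818. The stress genes Ddit3 and Hspa8 were the exceptions, at -1.08 and -0.65. The time from dissection to capture is not in the sources used here, and its part in these levels was not tested.

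The cell cycle entry gene Ccnd1, or cyclin D1, had a median of 1161 CPM in precursors (662 to 1466) against 3.43 in oligodendrocytes and 7.92 in astrocytes. Ccnd2 had 158 CPM against 0 in the median oligodendrocyte sum. Of a separate list of 24 cell cycle genes only Pcna could be compared with oligodendrocytes, and it was lower in precursors, at -0.83. Rlbp1, a retinaldehyde binding protein, had the largest difference among genes with a mean of at least 50 CPM in precursors, a log2 difference of 8.55 (SE 0.235), from 394 to 824 CPM in precursors and from 0 to 3.25 in oligodendrocytes. Susd5, a sushi domain membrane protein, differed by 8.17 (SE 0.293).

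**Figure D2:**
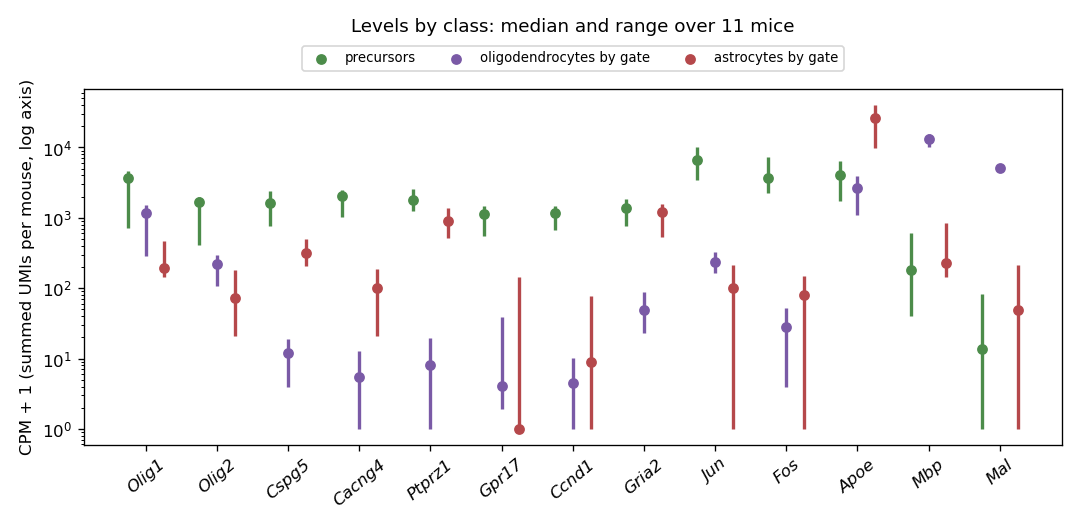
CPM + 1 on a log axis for genes of the text, with points for the median and lines for the range over 11 mice in precursors (green), oligodendrocytes (purple) and astrocytes (red). Cacng4, Gpr17, Jun and Fos are highest in precursors, Ptprz1 and Gria2 also in astrocytes, and Mbp and Mal in oligodendrocytes.

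All 20 myelin and myelin lipid genes compared were lower in precursors, with a median log2 difference of -5.35. Mbp, myelin basic protein, had a median of 179 CPM (39.4 to 600.1) in precursors, 13190 in oligodendrocytes and 226 in astrocytes, which make no myelin. Mal and Opalin, genes of mature myelin, had medians of 12.7 and 0 CPM against 5030 and 1234. Aspa, which breaks down N-acetylaspartate, was seen in 3 precursors and had 812 CPM in oligodendrocytes. The smallest difference was that of Gjc3, a connexin shared with precursors, at -0.56, and in plain CPM Gjc3 was higher in precursors in 5 of 11 mice.

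Genes of the committed and newly formed stage were divided. Of 12 compared, 9 were higher in precursors and 3 lower. Gpr17 ran from 549 to 1481 CPM (median 1142) against 0.921 to 37.7 in oligodendrocytes, Lims2 had 498 against 29.1, and the kinase Fyn 354 against 79.2. Myrf, the transcription factor that drives myelin genes, was lower, at -3.55, and Enpp6, an enzyme of newly formed oligodendrocytes, at -3.39. Lipid synthesis genes were mostly lower. Of 20 fatty acid and lipoprotein genes 14 were lower and 4 higher (median -1.07, the same with Scd3, at 0 in precursors, at its bound), and of 13 cholesterol genes 7 were lower and 2 higher (median -0.74). The desaturase Scd2 was lower, at -2.83 (SE 0.109), while Fabp7, a fatty acid binding protein of progenitors and astrocytes, had 1202 CPM in precursors against 4.52.

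**Figure D3:**
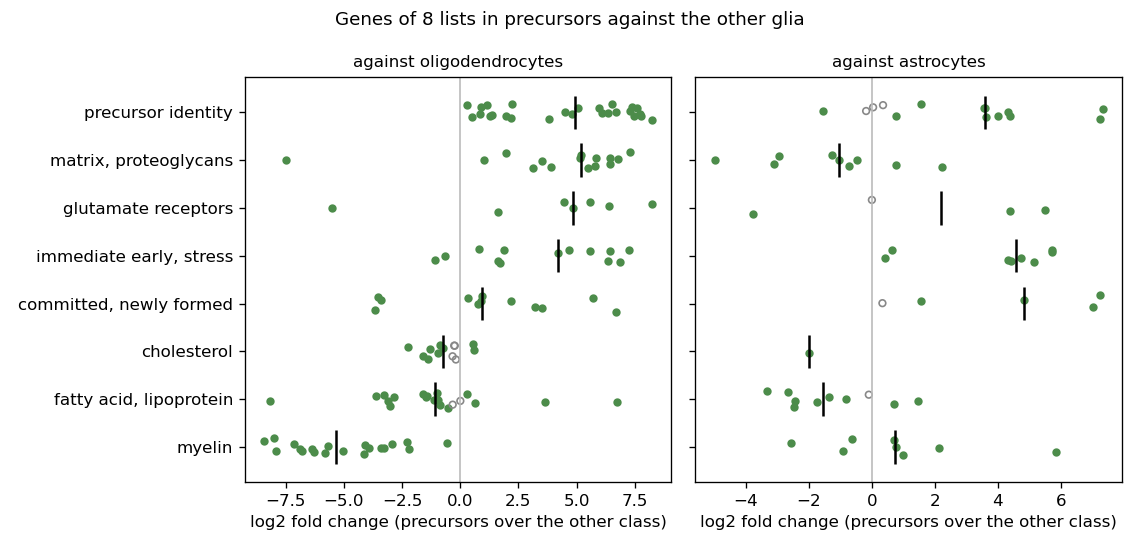
Log2 fold changes of the genes of 8 lists in precursors over oligodendrocytes (left) and over astrocytes (right), with filled points at an adjusted p under 0.05, open points for the others and a bar at the median of each list. Most identity, glutamate receptor and immediate early genes lie to the right of 0 in both panels, the exceptions being Grm3, Hspa8 and Ddit3 on the left and Gria1, Ednrb and Pcdh17 on the right, while matrix genes other than Hapln2 lie to the right against oligodendrocytes and mostly to the left against astrocytes.

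Against astrocytes, 566 of 885 genes (64.0%) differed at an adjusted p under 0.05, 303 higher (34.2%) and 263 lower (29.7%) in precursors, again as a description. With the 575 cells 534 of 779 did (68.5%), and 499 were shared. Olig1 and Olig2 were higher by 3.63 (SE 0.167) and 4.00 (SE 0.202), and of 14 identity genes 10 were higher and 1 lower, with a median of 3.58 beside 0.08 over all genes. The one lower was Ednrb, the endothelin B receptor, at a median of 924 CPM in precursors and 2349 in astrocytes. Ptprz1 differed by 0.78 (SE 0.123) only, with 894 CPM in astrocytes. The AMPA subunits differed in opposite ways. Gria3 was higher in precursors by 5.49, Gria1 was lower, at -3.77, and Gria2 was at 1359 and 1227 CPM with a log2 difference of 0.00 (SE 0.142).

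Matrix genes were lower than in astrocytes in 7 of 9 cases, with a median of -1.05. Sparc, a secreted matrix protein, was lower, at -3.10, and its relative Sparcl1 at -2.94, while Cspg5 was higher by 2.23. All 8 immediate early and stress genes compared were higher in precursors, with a median log2 difference of 4.58. Jun had a median of 99.3 CPM in astrocytes and Fos 79.2, and both differed by 5.72. The glutamate transporter Slc1a3 had 220 CPM in precursors against 4839 in astrocytes, and Itih3, an astrocyte gene that binds hyaluronan, was seen in 5 precursors and had 2162 CPM in astrocytes. The metallothionein Mt1 was lower in precursors, at -3.90 (SE 0.134), and the lipid carrier Apoe at -2.67 (SE 0.0934), the latter at 4050 against 26290 CPM.

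Gpr17, which the gate did not use, divided the precursors. At least 1 Gpr17 UMI was seen in 340 of 612 (55.6%), at least 2 in 182 and at least 5 in 29, with up to 24 in a cell. It was seen in 0.471% of oligodendrocytes and 0.226% of astrocytes, and after thinning to 500 UMIs in 34.6% of precursors, 0.195% and 0.226%. Among the 575 it was seen in 337 (58.6%) and among the 37 marker-holding cells in 3. By mouse the share was 40.4, 46.0, 69.8, 64.5 and 67.2% in control 1 to 5. In HFD 1 to 6 it was 58.1, 72.5, 38.3, 46.3, 68.8 and 56.0%. The groups overlapped over nearly their whole range. The means were 57.6% ± 13.4 (SD, n = 5) and 56.7% ± 13.0 (SD, n = 6), p = 0.907 by a two-sided exact permutation test, and after thinning the difference had the other sign at 2.32 points (p = 0.58, exact). The level of Gpr17 did not separate the diets either, at 1054 ± 353 CPM (SD, n = 5) against 1069 ± 298 (SD, n = 6). Over the 575 cells the mean shares were 61.8% and 58.4% (p = 0.708, exact permutation test) and the levels 1231 and 1135 CPM. Without control 1, control 2 and HFD 1 the shares over all precursors were 67.2% and 56.4%, a difference of -10.8 points (p = 0.286, exact permutation test).

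Precursors with a Gpr17 UMI held more Fyn, Bcas1, Sirt2 and Tuba1a than precursors without one. In edgeR with the mouse as a block over 11 mice, 13 of 314 genes (4.14%) passed at an adjusted p under 0.05, 5 higher (1.59%) and 8 lower (2.55%). Cells with Gpr17 were deeper, with a median of 1205 UMIs against 930.5, and held 3 of the 37 marker-holding cells, so the comparison was also made over the 575, in the 10 mice with at least 10 cells of each kind and over the 4953 genes with at least 30 UMIs. There 6 genes passed, all higher (0.121%). Both classes were cut by a count from the same cells. Among the 575 they differed in median depth (1213 UMIs with Gpr17, 907 without) and in median gate UMIs (6 against 4). The adjusted p values of this comparison describe this split and do not test an independent grouping. With the default filter on the 575, 7 of 241 passed (2.9%), and Fos was among the 2 lower, at -0.34 (adjusted p = 0.0373, edgeR). Fyn did not reach that filter among the 575, so its value there comes only from the filter of 30 UMIs, which was not planned.

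Fyn, a Src family kinase that acts early in myelination, ran among the 575 from 231 to 1339 CPM with Gpr17 (median 500) and from 48.6 to 475 without, higher in 8 of 10 mice, with a log2 difference of 1.34 (SE 0.227, adjusted p = 8.13e-06, edgeR). Bcas1, a marker of cells starting to make myelin, differed by 0.96 (SE 0.185, adjusted p = 0.000364) and was higher in 9 of 10. Sirt2, a deacetylase of the lineage, differed by 0.82 (SE 0.195, adjusted p = 0.02) and was higher in 10 of 10. Tuba1a, an alpha tubulin, differed by 0.56 (SE 0.124, adjusted p = 0.00764) and was higher in 8 of 10. Tmsb4x, which binds actin, differed by 0.83 (SE 0.172, adjusted p = 0.00184), but over all 612 cells it went the other way in summed CPM, at 1036 with Gpr17 and 1955 without. Over all 612 cells Fyn, Bcas1, Sirt2 and Tuba1a passed too, while Fyn lost its call without HFD 1 (log2 difference 1.27) or without HFD 2 (1.20), and Bcas1, Sirt2 and Tuba1a lost theirs without the 3 libraries that stood apart.

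Other genes of the committed stage were sparse. Among the 575, Bmp4 gave 21 UMIs in cells with Gpr17 and 0 in those without, and Enpp6 gave 11 and 1. Mbp summed to 311 CPM with Gpr17 and 190 without. Of 11 committed-stage genes 9 had a positive difference, with a median of 0.63, and 2 passed. Of 14 myelin genes 11 had a positive difference, with a median of 0.41. Of 28 identity genes none passed, and the median was 0.21. The median over all 4953 genes was 0.13.

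The 8 genes lower in Gpr17 cells over all 612 were Cald1, B2m, Fth1, Bsg, Sparc, Rpl13a, Tpm1 and Laptm4a. None of them passed among the 575 in the 4953-gene comparison. Cald1, a contractile cell gene, changed from -1.61 (SE 0.402, adjusted p = 0.0482) to 0.03, Sparc from -0.94 (adjusted p = 0.00754) to 0.28, and Bsg, a gene of vessel endothelium, from -1.06 (adjusted p = 0.00259) to 0.05. Of the 37 marker-holding cells, 34 were without Gpr17.

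**Figure D4:**
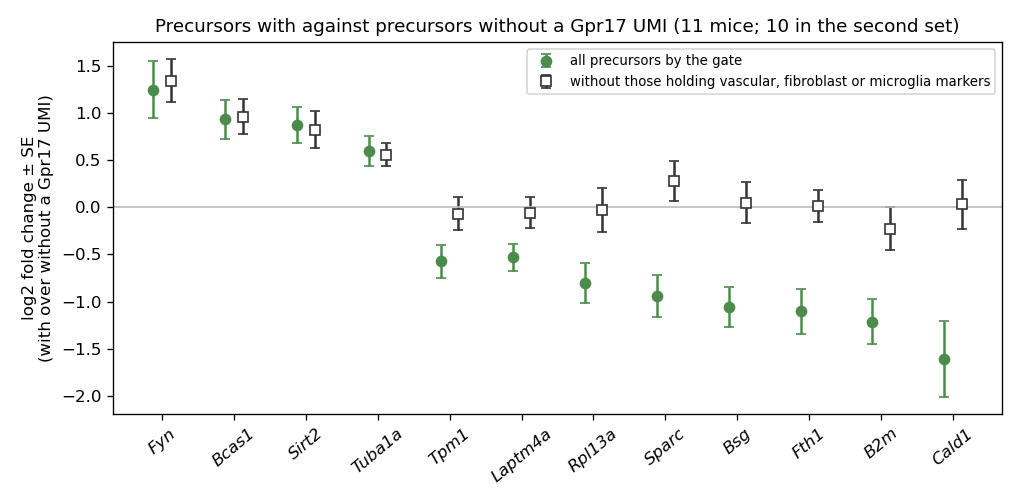
Log2 fold change ± SE of genes that passed over all precursors (filled circles) and their values among the 575 without vascular, fibroblast or microglia markers (open squares), precursors with over precursors without a Gpr17 UMI. The higher genes shown keep values between 0.56 and 1.34, and the 8 lower genes move to between -0.23 and 0.28.

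Cell cycle transcripts were rare in precursors. At least 2 UMIs of 24 cell cycle genes were found in 26 of 612 precursors (4.25%, 95% Wilson interval 2.92 to 6.15%), but oligodendrocytes, which do not divide, had 3.13% (2.73 to 3.6%). After thinning to 500 UMIs the shares were 1.80% and 0.487%. At least 10 such UMIs were found in 4 precursors and in 0 of 6160 oligodendrocytes and 0 of 885 astrocytes. These 4 cells held 87, 62, 35 and 35 cell cycle UMIs. Of these 4, 2 came from control 2, 1 from control 4 and 1 from HFD 2. All 4 held Mki67 and Top2a, which mark dividing cells, and none held more than 1 Gpr17 UMI. The cell of HFD 2 also held vascular, fibroblast or microglia markers, and the cell of control 4 was called a doublet. By mouse the share with at least 2 UMIs was 6.38, 5.00, 0, 8.60 and 1.56% in control 1 to 5. In HFD 1 to 6 it was 0, 15.0, 3.33, 0, 0 and 0%. The means were 4.31% ± 3.51 (SD, n = 5) and 3.06% ± 6.00 (SD, n = 6), p = 0.697 by a two-sided exact permutation test, and over the 575 cells 4.22% and 2.70% (p = 0.61, exact).

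Between the diets, 1 of 1554 genes (0.0644%) passed in the precursors, in edgeR with pool as a covariate, and 58 had an unadjusted p under 0.05 (3.73%). This gene was Apod, the lipid carrier apolipoprotein D (chr16:31296192-31314808), which was lower on the high fat diet. It had 2290, 1165, 2316, 991 and 2479 CPM in control 1 to 5 and 0, 60.8, 110, 58.6, 23.6 and 39.4 in HFD 1 to 6, with no overlap. The log2 difference was -5.15 (SE 0.418, adjusted p = 1.39e-07), and it was -5.08 within pool 1 and -5.26 within pool 2. Without control 1, control 2 and HFD 1, 3 genes passed: Apod, the fibroblast matrix gene Dcn (decorin) and Gpld1 (-1.10, adjusted p = 0.047). With the doublets left out, with at least 3 gate UMIs or with cells of at least 1000 UMIs, Apod did not reach the filter on low counts and was not tested, and none of the genes tested passed in edgeR.

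Apod sat in few cells. Of its 1109 UMIs in precursors, 1067 (96.2%) were in 14 cells with fibroblast markers, 13 of them from control mice, and 5 cells held 65.1%. These totals include mice outside the test, among them control 7 with 143 UMIs and HFD 7 with 139 in its only precursor. Among the 575 cells it was at 26.5, 79.8, 15.4, 71.2 and 50.9 CPM in control 1 to 5 and at 0, 69.2, 111, 61.3, 25.6 and 42.4 in HFD 1 to 6. There the groups overlapped throughout, with a log2 difference of -0.02 (SE 0.546, adjusted p = 0.999, edgeR). Fibroblast marker transcripts moved with it. In the 11 mice tested their 7 genes summed to between 209 and 1476 CPM in control mice and between 0 and 70.6 in HFD mice. Among kept barcodes, 44 were counted with fibroblast markers in control mice and 23 in HFD mice, and 13 and 1 of them were within the gate. Apod was also abundant in oligodendrocytes, with a median of 7692 CPM. With the 575 cells, 0 of 1225 genes passed (0%) and 49 had an unadjusted p under 0.05 (4.0%), and with 30 UMIs as the filter 0 of 5183 did, with 227 (4.38%).

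**Figure D5:**
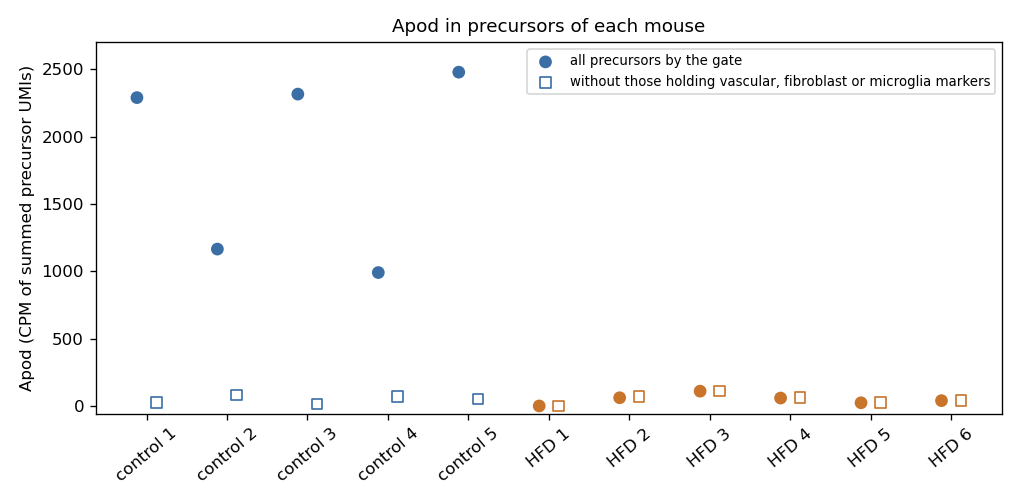
Apod in CPM of summed precursor UMIs for each mouse with at least 10 precursors, over all 612 (filled circles) and over the 575 without vascular, fibroblast or microglia markers (open squares), control in blue and HFD in orange. The 5 control mice lie between 991 and 2479 over all precursors and below 80 without those cells, beside 0 to 111 in HFD mice.

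Apart from Apod no gene of the lists passed between diets. Of the 26 identity genes tested, 15 had higher and 11 lower values on the high fat diet, with a median log2 difference of 0.08 beside 0.01 over all genes. The 12 matrix genes had a median of -0.10, the 6 glutamate receptor genes -0.02, the 11 fatty acid and lipoprotein genes 0.02 and the 27 nuclear respiratory chain genes -0.05. The 12 immediate early and stress genes had a median of -0.31, with 8 of 12 lower. Fosb, of the Fos family, had 649, 2270, 1700, 2996 and 1370 CPM in control 1 to 5 and 1129, 624, 1043, 440, 1272 and 236 in HFD 1 to 6. Its difference of -1.19 (SE 0.393, unadjusted p = 0.00978, edgeR) had an adjusted p of 0.9998, and with no filter on low counts it was -1.36 with an adjusted p of 5.04e-05 and passed. That unfiltered setting called 11 of 14533 genes, the fibroblast gene Dcn (-6.31) among them. Its median over all genes was -0.22.

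The genes with the smallest p beside Apod were, in the higher direction, Unc50 (0.98), Epdr1 (1.01), Cmtm5 (0.81), Shisa4 (0.95) and Pou3f1 (0.91), and in the lower direction Srsf3 (-0.93), Cp (-0.82), Fosb and Rock2 (-0.67), with values on the log2 scale and an adjusted p of 0.9998 in each case by edgeR. Epdr1, an ependymin-related gene, had 38.2, 113, 58.6, 211 and 192 CPM in control 1 to 5 and 192, 228, 293, 352, 283 and 276 in HFD 1 to 6. The groups met at 192 to 211 CPM. Srsf3, a splicing factor, had 254, 374, 352, 357 and 272 CPM in control mice and 192, 274, 91.5, 58.6, 259 and 197 in HFD mice, which overlapped as well. Pou3f1, a transcription factor of glial progenitors, had a difference of 0.91 (SE 0.342).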

How the data were processed

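Drop-seq libraries of 14 mice gave 1 table each. The deposited values are raw UMI counts per gene and barcode, not normalized. The submitters' processing notes name STAR 2.4.2a, Picard 2.2.4, bcl2fastq 2.18.0.12 and mm10 (GRCm38). The UMI counter and annotation (not given in the sources used here) decide how overlapping and near-identical genes were counted. The cells, gene lists and gates were chosen with earlier results of these data known. Counts were summed per mouse and class where a mouse had at least 10 cells. Sums were compared with the robust quasi-likelihood F test of edgeR 4.0.16 under R 4.3.3, after TMM scaling and filterByExpr, with Benjamini-Hochberg adjustment over all genes tested. DESeq2 1.42.0 and limma 3.58.1 were alternatives. Shares were compared with exact permutation tests. Scrublet (scanpy 1.11.5) ran on mice with at least 300 kept barcodes. Markers of another cell type counted as held from 4 UMIs. Named genes were, for diet, 5 per direction by smallest p, elsewhere up to 12 per direction with the largest difference and at least 50 CPM, and up to 6 of each list. Some genes that the rule names are not reported here. Other genes shown were chosen after their values were seen. On counts simulated for the diet comparison over 1566 genes, the test recovered 37.1% of genes changed by 1 on the log2 scale. It recovered 100% of those changed by 2. The simulation gave every gene a dispersion of 0.1 and changed no more than 20% of them. The spread of the measured counts can differ, so these rates need not hold for the diet test itself.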

Additional observations from a re-analysis of the deposited data

Results flagged for a closer look

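One value stood far from the rest of its group. In HFD 2, 15.0% of precursors (6 of 40) had at least 2 cell cycle UMIs, while the other 5 HFD mice with at least 10 precursors had between 0 and 3.33%. HFD 2 also had the deepest precursors of these mice, with a median of 1430 UMIs, and 1 of the 6 cells held 62 cell cycle UMIs in a barcode of 7946 UMIs with vascular, fibroblast or microglia markers. Of 28 groups checked, 1 was flagged, and whether so many checks alone would yield such a gap was not tested.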

How the results depend on the processing

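The share difference between diets (p under 0.05 before adjustment) lost that threshold without the 3 libraries that stood apart (-0.975 points), within pool 2 (-0.335), after thinning (-1.09), over barcodes low in neuron RNA only (-1.71), without precursors that held any other cell type's markers (-0.571) and without the 37 marker-holding cells (-1.35). The difference kept an unadjusted exact p under 0.05 within pool 1 (-2.24), with at least 3 gate UMIs (-1.49) and with at least 1 (-1.77). It also did so without doublets (-1.38) and without mice with under 300 kept barcodes (-1.69). The share difference ran from -1.73 to -0.964 when mice were left out in turn. Its p was over 0.05 without control 2, HFD 2, HFD 4 or HFD 7. The Gpr17 share difference reversed to 2.32 points after thinning, was -10.8 points without the 3 libraries and ran from -5.20 to 2.76 with mice left out. The cell cycle share difference reversed to 0.278 without the 3 libraries and ran from -3.64 to -0.181. Median depth per precursor (log10) differed by -0.0853 to -0.0317 with mice left out.

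The diet comparison called 11 genes with no filter on low counts, 3 without the 3 libraries, 2 within pool 2, and 0 with at least 3 gate UMIs, with at least 1000 UMIs per cell, without doublets, without any other type's markers, or without the 37 cells (also 0 with genes of at least 30 UMIs). With mice left out it called 1 to 2 (2 without control 2), and DESeq2 called 1. The oligodendrocyte comparison called 5969 genes unfiltered and 2443 to 2763 with mice left out, and the astrocyte comparison 2751 and 473 to 613. Unfiltered, the oligodendrocyte differences of Apoe (-0.19), Atp5a1 (-0.31), Atp5b (-0.35), Bcas1 (-0.16) and Ndufa4 (-0.049) reversed. The Gpr17 comparison called 175 unfiltered, 10 with DESeq2, 6 without the 3 libraries, 6 without any other type's markers, 7 without the 37 cells (6 with the filter of 30 UMIs), and 9 to 18 with mice left out. Bsg (0.047), Cald1 (0.029), Fth1 (0.010) and Sparc (0.28 and 0.15) reversed without the 37 cells, and Fth1 (0.025) without any other type's markers. The cause was not tested. No paired analysis was possible because the mouse numbers pair no control with an HFD mouse. Counts per mouse limit the tests, and 3 mice had fewer than 10 precursors.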

Other observations

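Receptors and channels of precursors that the account above left out also differed from oligodendrocytes, again as a description. The ERK pathway feedback genes Dusp6 and Spry1 were higher in precursors by 6.54 (SE 0.293) and 4.19 (SE 0.281) on the log2 scale, and the neurotrophin receptor Ntrk2 by 4.06 (SE 0.152). The lysophosphatidic acid receptor Lpar1 was lower, at -6.80 (SE 0.261), and the fibroblast growth factor receptor Fgfr2 at -5.92 (SE 0.334). The potassium channel subunit Kcnd2 and its partner Kcnip3 were higher by 5.94 (SE 0.240) and 6.20 (SE 0.176). Of 13 ion channel and pump genes compared, 7 were higher and 6 lower, beside 27.3% and 34.7% of all genes. Among the lower were Kcna1, at -2.97, and Atp1b3, at -2.59.

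Il33, an alarmin cytokine, had a median of 29.3 CPM in precursors against 1881 in oligodendrocytes. Of 4 immune and reactive genes compared, the other 3 (B2m, H2-D1 and H2-K1) were higher in precursors. The adiponectin receptor Adipor2 was lower in precursors, at -2.81 (SE 0.261). Transcripts of the wider neuron marker list summed to between 1819 and 3899 CPM in control precursors and between 3250 and 5394 in HFD precursors, against 852 in oligodendrocytes and 1728 in astrocytes. Over the 575 precursors without vascular, fibroblast or microglia markers these sums ran from 3073 to 4095 in control and from 3482 to 5520 in HFD mice. Of 10 such genes compared with oligodendrocytes 6 were higher and 1 lower, beside 27.3% and 34.7% of all genes compared. Rtn1, a reticulon, was at 928 CPM on average against 79.4.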
